A study of Homo sapiens with 17 samples.

Results

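The insulin-like growth factor (IGF) binding proteins and the receptors and adaptors of insulin signalling were followed by RNA-seq in 2 squamous cancer cell lines in which the SOX2 enhancer e1 or SOX2 itself was perturbed, or which were given the compound ARV-771. The 10 genes were IGFBP2, IGFBP3, IGFBP4, IGFBP5, IGFBP6, IGFBP7, IGF1R, INSR, IRS1 and IRS2, and all 10 were found by symbol among the 57820 genes of the deposited tables. The set was chosen on the IGFBP5 values of the e1 activation contrast in SKMES1 cells, where IGFBP5 is higher with e1 guides. Values from that contrast are therefore given as a description, with no test.

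KYSE140 is an oesophageal squamous carcinoma line with high SOX2, and SKMES1 is a lung squamous carcinoma line with low SOX2. Of the 17 libraries, 13 were from KYSE140 and 4 from SKMES1. For e1 repression, KYSE140 cells that stably carried a CRISPR interference (CRISPRi) construct received 1 of 2 guides to e1 or 1 of 2 guides with no site in the genome (n = 2 libraries per group). For SOX2 knockout, KYSE140 cells with active Cas9 received sg-SOX2#2, #3 or #4 (n = 3), or a guide to AAVS1 or to the Chr2.2 control region (n = 2). The remaining KYSE140 libraries came from cells given 0.5 µM ARV-771 or DMSO for 6 h (n = 2 each). SKMES1 cells carried dCas9-VP64, an activating fusion, with e1 guide #1 or #3 (n = 2) or non-targeting guide #1 or #2 (n = 2). The CRISPR libraries came from infected and drug-selected populations, and within a CRISPR group each library carried a different guide. Nothing states that libraries A and B of the ARV-771 and DMSO groups came from separate cultures, so p-values there measure the spread between libraries, which may be technical.

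IGF1 and IGF2 are secreted growth factors that bind the receptor tyrosine kinase IGF1R, and insulin binds the related receptor INSR. Either receptor phosphorylates the docking proteins IRS1 and IRS2, which recruit PI3K and so switch on AKT and mTOR. IGF binding proteins are secreted too: they hold IGFs in the extracellular space and can block or prolong their action, and proteases such as PAPPA cut them and free the ligand.

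The libraries held between 7260730 and 15781463 expected counts. SOX2 RNA, the check of the perturbations, was 365 to 379 TPM, a level scaled to transcript length and library size, in the CRISPRi controls against 120 to 128 TPM with e1 guides. It was 397 to 428 TPM in the knockout controls against 103 to 221 TPM with SOX2 guides, with the highest value in replicate 4. Cut alleles can still be transcribed. SOX2 was 223 to 236 TPM with DMSO and 9.80 to 10.5 TPM with ARV-771, and 1.53 to 1.68 TPM in SKMES1 controls against 224 to 316 TPM with e1 guides. KYSE140 carried the squamous keratin KRT5 at 2398 TPM or more in every library, whereas SKMES1 had at most 1.26 TPM of KRT5 and at most 0.10 TPM of the desmosomal cadherin DSG3, so these markers were nearly absent from SKMES1. Of the 7 squamous markers 6 were called lower in the SKMES1 control than in the KYSE140 CRISPRi control. The other, KRT14, did not pass, at 0.31 and 118 TPM in the SKMES1 controls and 81.9 to 87.1 TPM in the CRISPRi controls. In this comparison 55.6% of all genes tested were called, in either direction. KRT5 and DSG3, with at most 4 counts in the SKMES1 controls, met the filter on low counts through KYSE140 alone, so they had to be lower. PKP1 was called lower but still stood at 72.0 to 141 TPM in SKMES1. The 7 summed to 75.8 to 266 TPM in SKMES1. The 3 leukocyte markers summed to at most 1.03 TPM in KYSE140 and to 3.05 to 6.39 TPM in SKMES1, where CD14 was 2.99 to 5.84 TPM and PTPRC at most 0.55 TPM. The 7 mesenchymal markers summed to 1803 to 2412 TPM in the SKMES1 controls, mostly VIM, and to 207 to 220 TPM in the CRISPRi controls. Of the 5 that could be tested 3 were called higher in SKMES1 and 0 lower, against the same 55.6% of all genes. FN1 and ZEB1, with 3 to 5 and 1 to 2 counts in the CRISPRi controls, met the filter on low counts through SKMES1 alone. These markers had to be higher, and the other one called was VIM. The 2 epithelial markers summed to 36.4 to 46.4 TPM in the SKMES1 controls and to 321 to 329 TPM in the CRISPRi controls. The 2 endothelial markers summed to at most 0.15 TPM in KYSE140. In SKMES1 the endothelial marker CDH5 was at 0 in all 4 libraries, while KDR was 0.30 and 0.49 TPM in the controls and 1.51 and 8.09 TPM with e1 guides. SKMES1 control replicate 2 stood apart: it held 118 TPM of KRT14 against 0.31 TPM in control replicate 1, and the 2 libraries differed by a chi-square of 29.55 per degree of freedom, against 2.205 to 13.7 for the other pairs of replicates.

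IGFBP2 and IGFBP5 are neighbours on chromosome 2. In GRCh37, the build of the files, IGFBP2 lies on the plus strand at chr2:217497551-217529159 and IGFBP5 on the minus strand at chr2:217536828-217560272, with 7668 bases between their 3′ ends. IGFBP6 lies at chr12:53491220-53496129, IRS1 at chr2:227596028-227664536 and IRS2 at chr13:110405042-110438930. The promoters of these 5 genes are shown because they carry the changes described next: IGFBP2 and IGFBP5 fell with e1 repression, IGFBP6 rose, and IRS1 and IRS2 fell together with ARV-771. The sequences are RefSeq windows from the GRCh38.p14 table, from 250 bases before to 50 bases after the start. Each was found once, letter for letter, on its chromosome in GRCh37, whose coordinates are printed. Capitals mark matches to any of 5 short motifs searched on both strands, with any overlap allowed. A shorter motif searched for SOX factors was ACAAT. The longer one searched for SOX factors was ACAAAG. The AP-1 motif was spelled as TGANTCA, where N is any base. The TATA box was searched by its letters TATAAA. The insulin response element was searched by TGTTTTG. For IGFBP2 the window at the start of its canonical GENCODE transcript was taken.

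IGFBP2 (chr2:217497893-217498192, plus strand): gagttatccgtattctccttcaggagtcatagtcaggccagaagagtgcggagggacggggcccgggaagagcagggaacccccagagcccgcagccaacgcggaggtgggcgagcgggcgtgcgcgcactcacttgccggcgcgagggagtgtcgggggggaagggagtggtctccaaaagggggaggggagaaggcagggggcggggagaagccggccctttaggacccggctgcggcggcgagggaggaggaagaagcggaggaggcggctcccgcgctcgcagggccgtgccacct

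IGFBP5 (chr2:217560223-217560522, minus strand): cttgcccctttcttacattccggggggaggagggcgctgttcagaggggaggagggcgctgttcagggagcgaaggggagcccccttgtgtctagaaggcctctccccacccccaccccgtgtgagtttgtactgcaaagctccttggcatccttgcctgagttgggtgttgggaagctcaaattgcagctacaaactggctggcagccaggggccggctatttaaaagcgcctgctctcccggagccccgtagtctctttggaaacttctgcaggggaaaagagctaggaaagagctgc

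IGFBP6 (chr12:53491201-53491500, plus strand): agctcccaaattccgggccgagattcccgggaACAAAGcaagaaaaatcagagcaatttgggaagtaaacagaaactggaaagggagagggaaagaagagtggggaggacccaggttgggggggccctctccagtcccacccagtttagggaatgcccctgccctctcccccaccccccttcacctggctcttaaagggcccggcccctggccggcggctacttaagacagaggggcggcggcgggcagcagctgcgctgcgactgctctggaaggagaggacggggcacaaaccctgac

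IRS1 (chr2:227664487-227664786, minus strand): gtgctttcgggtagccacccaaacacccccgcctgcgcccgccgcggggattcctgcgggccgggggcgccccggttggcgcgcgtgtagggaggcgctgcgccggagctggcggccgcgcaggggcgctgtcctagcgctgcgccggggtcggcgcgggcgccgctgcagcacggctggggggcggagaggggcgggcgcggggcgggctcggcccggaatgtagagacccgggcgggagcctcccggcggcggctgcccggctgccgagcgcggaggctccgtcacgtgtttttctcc

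IRS2 (chr13:110438881-110439180, minus strand): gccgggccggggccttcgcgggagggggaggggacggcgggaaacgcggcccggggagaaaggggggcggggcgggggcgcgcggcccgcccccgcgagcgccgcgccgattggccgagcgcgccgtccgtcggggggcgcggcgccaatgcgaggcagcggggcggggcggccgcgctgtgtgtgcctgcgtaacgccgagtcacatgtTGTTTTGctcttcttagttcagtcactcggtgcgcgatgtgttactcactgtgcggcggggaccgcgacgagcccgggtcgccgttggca

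In these windows ACAAAG occurred in IGFBP6, at position -218 from the start, and TGTTTTG in IRS2, at position -40, while no motif of the 5 was found in the windows of IGFBP2, IGFBP5 or IRS1. ACAAAG was present in 16.1% and TGTTTTG in 4.92% of the 35116 promoters of the table. Windows were at hand for 9 of the 10 genes, with none for IGFBP7, which was not searched. Among the other windows of the 9 genes, that of IGFBP4 held TATAAA at position -29, a motif present in 11.5% of all promoters. ACAAT was present in 27.4% and TGANTCA in 7.71% of them.

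The binding protein transcripts differed in kind between the lines. Summed over the 6 IGFBP genes, KYSE140 held between 168 and 854 TPM per library and SKMES1 between 861 and 1739 TPM. IGFBP2 made up 73.3% to 87.2% of that sum in the control and ARV-771 libraries of KYSE140, and 3.50% to 9.42% in SKMES1. With e1 repression the IGFBP2 share was 45.2% and 54.7%, and with SOX2 knockout it was 32.5% to 39.8%. IGFBP6 held 18.7% to 24.1% of the sum with e1 repression and 23.1% to 33.4% with SOX2 knockout, against 0.931% to 2.46% in the KYSE140 control libraries. In SKMES1, IGFBP6 and IGFBP7 were the main transcripts, followed by IGFBP4.

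**Figure D1:**
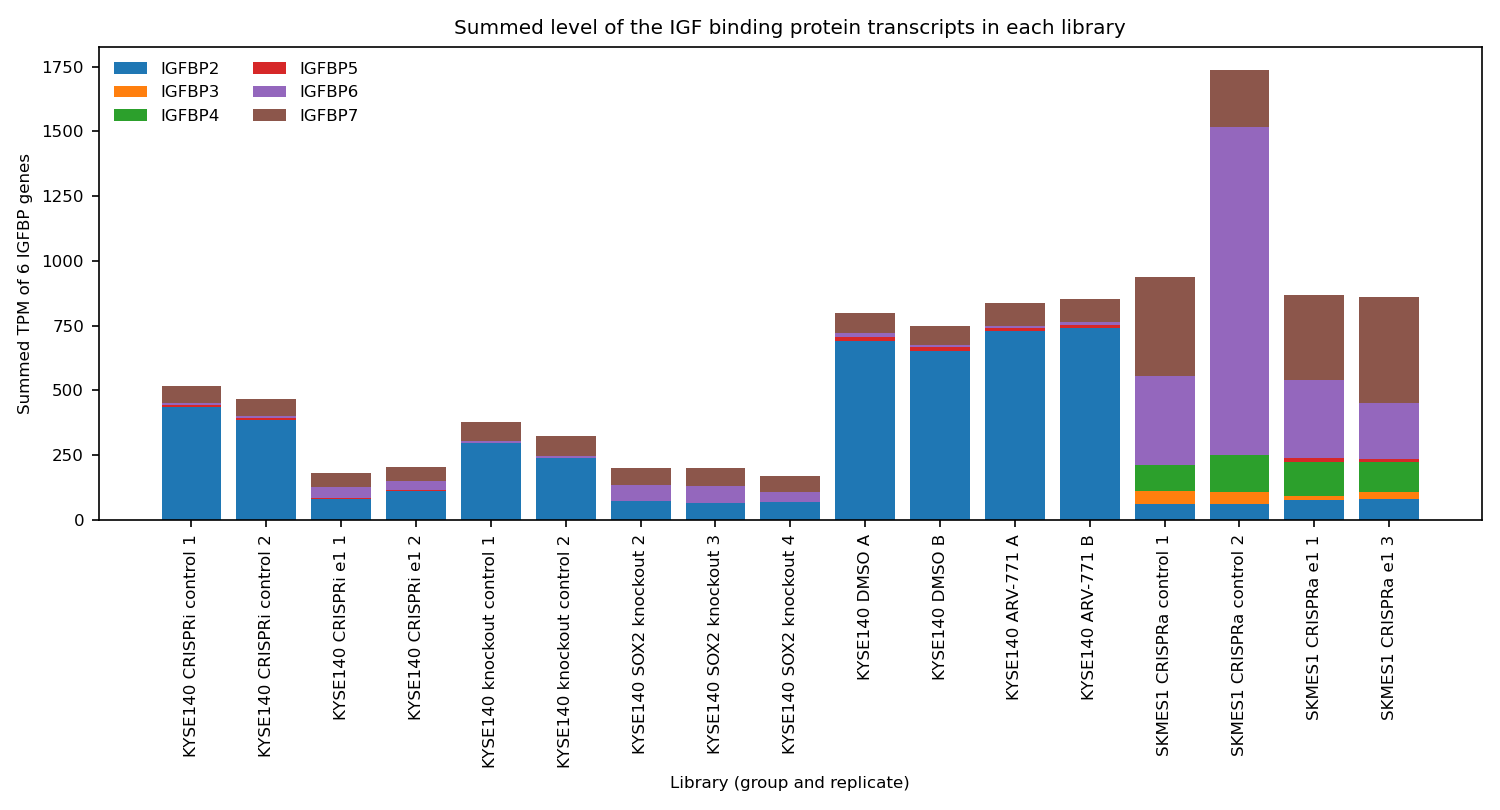
Summed TPM of the 6 IGFBP genes in each of the 17 libraries, stacked by gene. KYSE140 control and ARV-771 bars are mostly IGFBP2, the bars for e1 repression and SOX2 knockout are shorter (168 to 203 TPM) with a visible IGFBP6 part, and SKMES1 control replicate 2 reaches 1739 TPM through IGFBP6.

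IGFBP3 and IGFBP4 were nearly absent from KYSE140. IGFBP3, a binding protein abundant in serum, had 2 counts in 1 of 13 KYSE140 libraries and none in the others, and IGFBP4 had 3 and 2 counts in 2 of 13. A count of 0 allows up to 3 counts, or 0.221 to 0.413 counts scaled to library size (CPM) in the KYSE140 libraries, for counting error only. Both genes failed the filter on low counts within KYSE140, so 8 of the 10 genes were tested there. The order of levels also differed between the KYSE140 control groups: mean IGFBP5 was 14.8 ± 1.57 TPM (SD, n = 2) with DMSO, 6.23 ± 1.55 TPM (SD, n = 2) in the CRISPRi control and 0.695 ± 0.530 TPM (SD, n = 2) in the knockout control, with no overlap between the 3. For IGFBP2 the same order held, at 672 ± 28.7, 412 ± 35.0 and 266 ± 40.4 TPM (SD, n = 2 each). IGF1R ran from 47.5 ± 11.04 TPM in the knockout control, whose range overlapped that of e1 repression, to 9.27 ± 0.417 TPM in the SKMES1 control (SD, n = 2 each). INSR means lay between 4.04 and 5.86 TPM in 6 of the 8 groups, with 10.1 ± 5.78 TPM in the knockout control and 1.88 ± 0.205 TPM with ARV-771 (SD, n = 2 each).

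**Figure D2:**
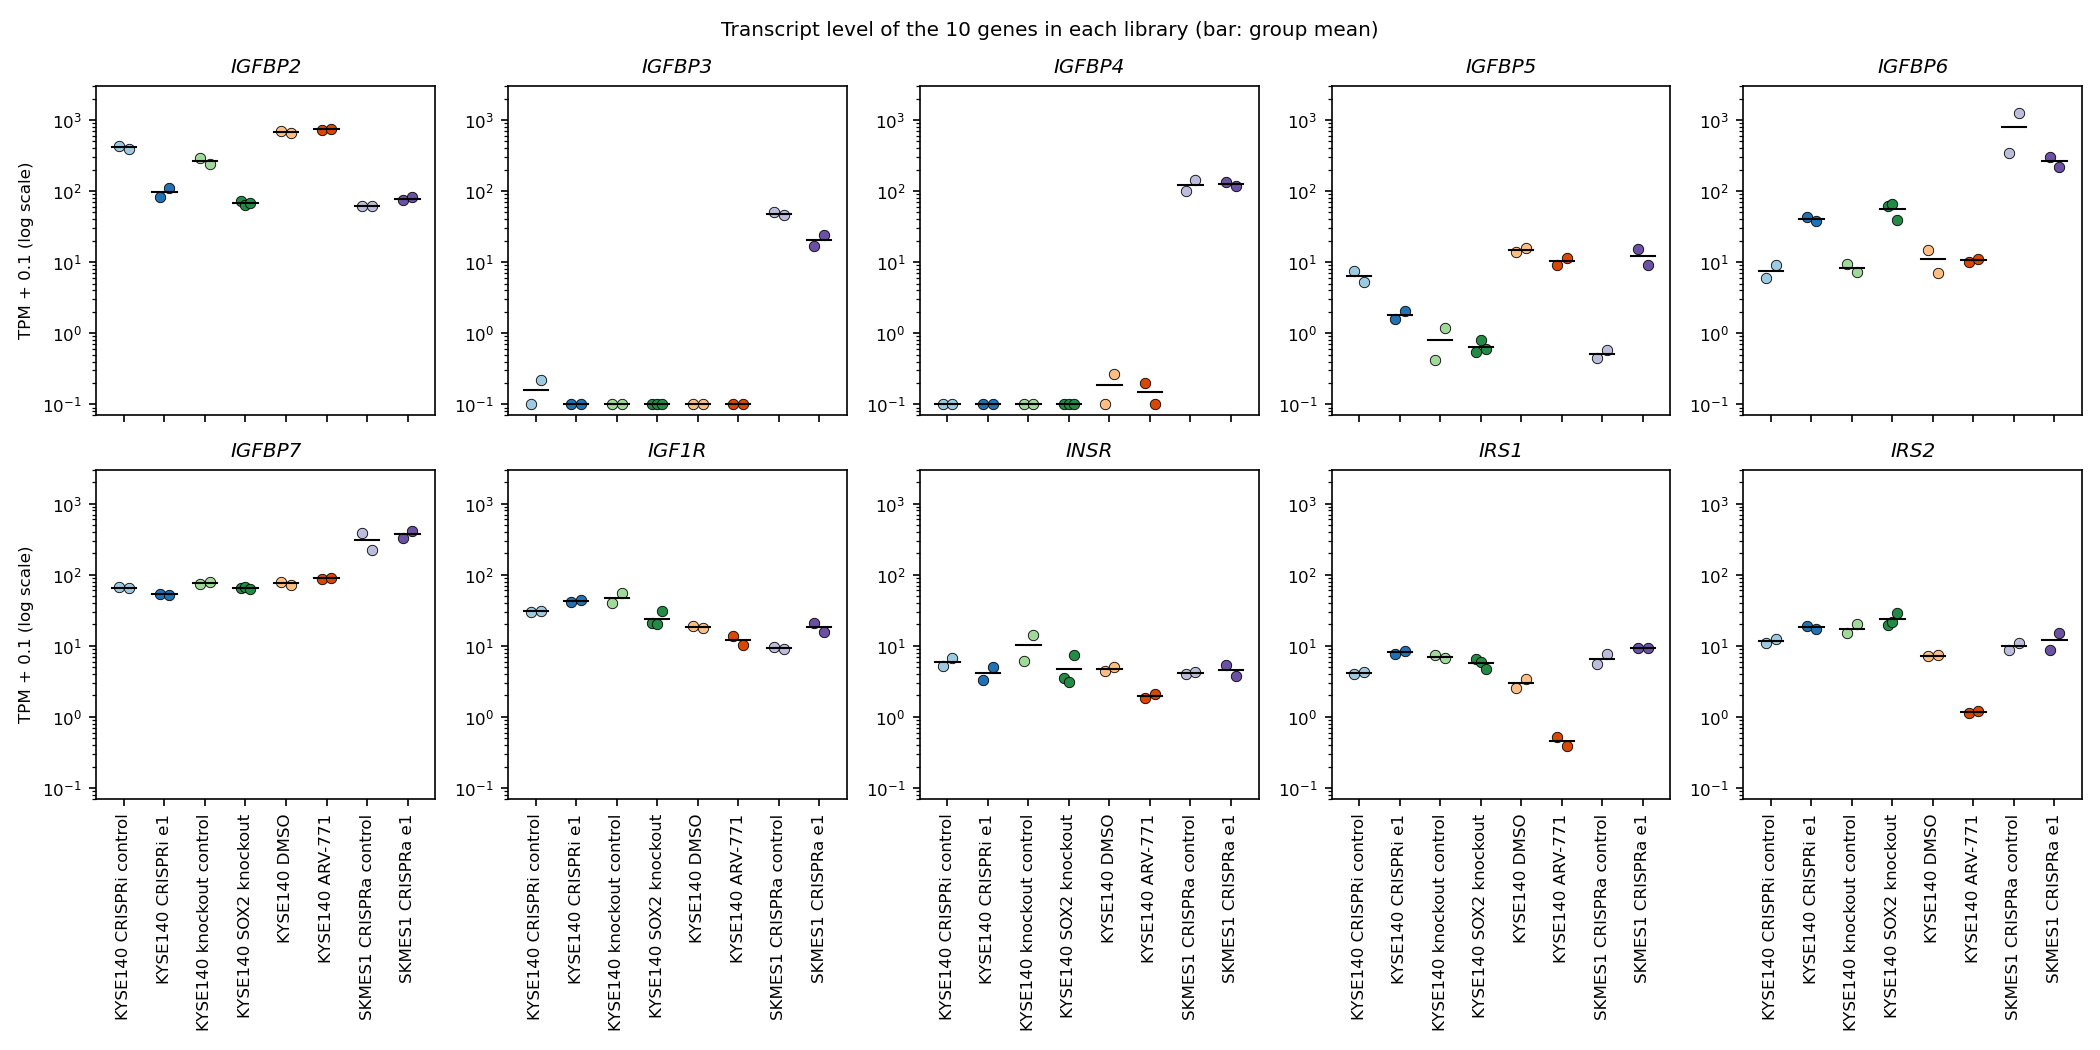
TPM + 0.1 on a log axis for each of the 10 genes, with 1 point per library and a bar at the group mean, over the 8 groups. IGFBP3 and IGFBP4 sit at the bottom of the axis in KYSE140 and at 16.99 to 51.05 TPM and 99.3 to 143 TPM in SKMES1.

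e1 repression in KYSE140 lowered IGFBP2 and IGFBP5 and raised IGFBP6, IRS1 and IRS2. By edgeR's quasi-likelihood test with Benjamini-Hochberg adjustment, 5 of the 8 tested genes passed an adjusted p of 0.05 with a fold change over 1.5, 3 higher and 2 lower, where 20.0% of all 13792 genes tested did. The median log2 fold change was 0.06 over the 8 genes and -0.00 over all genes tested. In bulk RNA, a change in the share of cells that express a gene and a change in RNA per cell cannot be told apart.

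IGFBP2 was 436 and 387 TPM in the controls and 81.8 and 111 TPM with the e1 guides. All e1 libraries lay below all controls, and the log2 fold change was -2.10 ± 0.09 (SE, adjusted p = 6.06e-11). IGFBP5, a binding protein of the extracellular matrix, was 7.32 and 5.13 TPM in the controls and 1.49 and 1.97 TPM with e1 guides, again without overlap. Its log2 fold change was -1.83 ± 0.19 (SE, adjusted p = 1.35e-06).

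IGFBP6, which binds IGF2 in preference to IGF1, moved the other way, from 5.79 and 8.89 TPM to 43.6 and 38.0 TPM. The log2 fold change of IGFBP6 was 2.42 ± 0.18 (SE, adjusted p = 2.37e-08). Markers of other states moved with it: the mesenchymal filament VIM went from 114 to 122 TPM to 1082 to 1156 TPM, and the basal keratin KRT14 from 81.9 to 87.1 TPM to 933 to 1132 TPM. Of the 7 mesenchymal markers 3 could be tested, 2 higher and 1 lower, and their summed level was 207 to 220 TPM in controls and 1169 to 1236 TPM with e1 guides, most of the latter VIM, with ZEB1 at 0.18 TPM or less. Of the 7 squamous markers 2 were higher and 2 lower, with sums of 6199 to 6210 TPM and 9564 to 9609 TPM. The part of these shifts in the IGFBP6 change was not tested.

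The docking proteins rose less. IRS1 went from 3.91 and 4.23 TPM to 7.68 and 8.32 TPM, a log2 fold change of 1.02 ± 0.12 (SE, adjusted p = 4.17e-06). IRS2 went from 10.8 and 12.3 TPM to 18.8 and 17.3 TPM, a log2 fold change of 0.66 ± 0.08 (SE, adjusted p = 7.59e-06). Neither pair of groups overlapped. IRS2 fell below the fold threshold without control replicate 1, at 0.57. Its expected counts were not whole in 11 of 17 libraries, so some of its reads were shared with other transcripts and its level is uncertain to that extent, as for IGFBP2 in 8 of 17.

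The remaining genes had changes under the fold threshold. IGF1R was 30.0 and 30.9 TPM in the controls and 40.8 and 43.6 TPM with e1 guides, with a log2 fold change of 0.41 ± 0.06 (SE). For INSR the log2 fold change was -0.54 ± 0.13 (SE), from 5.07 and 6.64 TPM to 3.21 and 4.92 TPM, and passed the threshold when control replicate 1 (-0.63) or e1 replicate 2 (-0.74) was left out. IGFBP7, a distant relative that binds IGFs weakly, was 66.6 and 64.2 TPM against 54.2 and 51.8 TPM, a log2 fold change of -0.28 ± 0.08 (SE).

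SOX2 knockout in the same line sets the loss of the gene product beside the repression of its enhancer. Of the 8 tested genes, 5 passed, 2 higher and 3 lower, where 29.7% of all 13978 genes tested did. The median log2 fold change was -0.30 over the 8 genes and -0.01 over all genes tested.

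IGFBP2 was 294 and 237 TPM in the knockout controls and 73.3, 64.3 and 66.9 TPM with SOX2 guides. The log2 fold change of IGFBP2 was -1.84 ± 0.12 (SE, adjusted p = 9.47e-08), with no overlap. IGFBP6 went from 9.28 and 7.05 TPM to 60.6, 66.0 and 38.8 TPM, and its log2 fold change was 3.02 ± 0.24 (SE, adjusted p = 6.90e-07). VIM rose beside it, from 237 to 267 TPM to 1152 to 1280 TPM, and KRT14 from 149 to 156 TPM to 1933 to 2644 TPM. Of the squamous markers 5 were higher and 1, TP63, lower, with sums of 7119 to 7122 TPM and 22775 to 26631 TPM. Of the 4 mesenchymal markers that could be tested 3 were higher and 1 lower, with sums of 325 to 364 TPM and 1213 to 1340 TPM. FN1, among the higher, had 0 and 4 counts in the knockout controls and 13 to 22 with SOX2 guides. It met the filter on low counts through the knockout group alone, so it had to be higher. The others higher were VIM and COL1A1, and CDH2 was lower. The part of these shifts in the IGFBP6 change was not tested.

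The receptors fell. IGF1R was 39.7 and 55.3 TPM in controls and 20.8, 20.3 and 31.0 TPM with SOX2 guides, a log2 fold change of -0.76 ± 0.12 (SE, adjusted p = 0.000164). INSR was 6.01 and 14.2 TPM against 3.45, 2.98 and 7.42 TPM, where the groups overlapped in TPM, and its log2 fold change was -0.74 ± 0.15 (SE, adjusted p = 0.00135). On log2(TPM + 1) with limma, INSR did not pass (-0.96, adjusted p = 0.112).

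IRS2 went from 14.8 and 19.8 TPM to 19.7, 21.6 and 28.9 TPM, with overlapping groups and a log2 change of 0.63 ± 0.14 (SE, adjusted p = 0.00234). It lost the call without knockout control replicate 1 (0.44) or SOX2 replicate 4 (0.49), with library-size scaling (0.43) and on log2(TPM + 1) (0.41). Library-size scaling moved the median log2 fold change of all genes to -0.21 here, with 1703 genes higher and 2999 lower, against 2275 and 1882 with TMM. IRS1 was 7.20 and 6.55 TPM against 6.40, 5.81 and 4.60 TPM, a log2 fold change of -0.29 ± 0.09 (SE) under the fold threshold.

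IGFBP5 was low in all 5 libraries, at 0.32 and 1.07 TPM in controls and 0.44, 0.70 and 0.50 TPM with SOX2 guides, from 11 to 30 counts each. Its log2 fold change was -0.32 ± 0.46 (SE, adjusted p = 0.590), and it was 0.61 without control replicate 2. The controls themselves differed, at 1.41 and 4.13 CPM, and whether the low counts or the spread between controls limits this comparison was not tested. IGFBP7 stood at 72.7 and 78.3 TPM against 64.8, 66.8 and 62.0 TPM, with a log2 fold change of -0.02 ± 0.09 (SE).

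Whether the responses to enhancer repression and to gene knockout differed was tested with an interaction term over 9 libraries, each arm with its own controls. It passed for 3 of the 8 genes, 2 with a positive and 1 with a negative difference, where 16.6% of all 14455 genes tested did. Over all genes 1187 differences were positive and 1210 negative with TMM, and 1883 and 902 with library-size scaling. The effect on IRS1 was higher with e1 repression by 1.32 ± 0.16 on the log2 scale (SE, adjusted p = 5.24e-05), and that on IGF1R by 1.19 ± 0.15 (SE, adjusted p = 7.23e-05). IGFBP5 had a difference of -1.52 ± 0.49 (SE, adjusted p = 0.0313). That call was lost without CRISPRi control replicate 1, e1 replicate 1, knockout control replicate 1 or SOX2 replicate 2, with adjusted p between 0.0618 and 0.183, and the IGFBP5 level in the knockout controls was already near that of the knockout. For the other 5 genes the difference in log2 fold change did not pass: it was -0.24 ± 0.19 for IGFBP2, -0.58 ± 0.36 for IGFBP6, -0.25 ± 0.12 for IGFBP7, 0.21 ± 0.22 for INSR and 0.04 ± 0.19 for IRS2 (SE). IGFBP6 passed without SOX2 replicate 4 (-0.77, adjusted p = 0.0283). The guides, constructs and controls of the 2 arms differ, and their part in the differences was not tested.

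**Figure D3:**
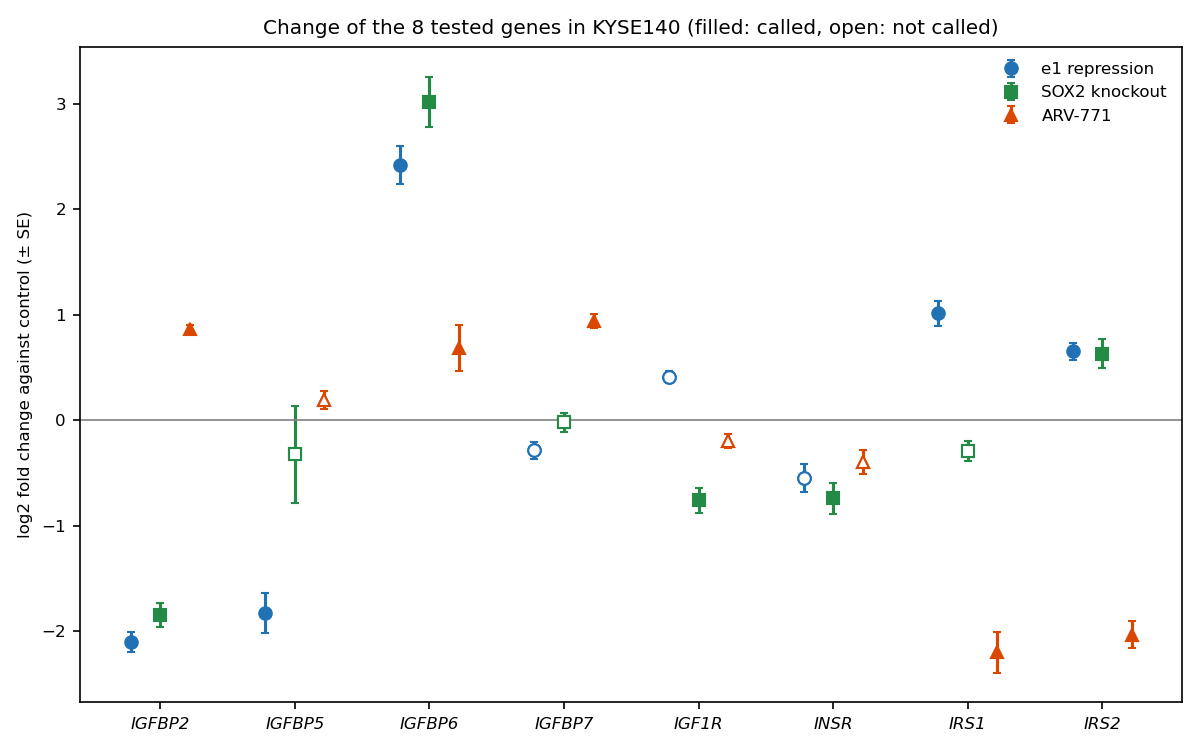
log2 fold change against control with its SE for the 8 tested genes in KYSE140, for e1 repression (circles), SOX2 knockout (squares) and ARV-771 (triangles), filled where called. IGFBP2 is lower and IGFBP6 higher under both e1 repression (-2.10 and 2.42) and SOX2 knockout (-1.84 and 3.02), and IRS1 and IRS2 are lowest with ARV-771 (-2.20 and -2.03).

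ARV-771 lowered both docking proteins within 6 h. IRS1 went from 2.46 and 3.27 TPM with DMSO to 0.42 and 0.29 TPM, a log2 fold change of -2.20 ± 0.19 (SE, adjusted p = 2.35e-10). IRS2 went from 7.14 and 7.24 TPM to 1.02 and 1.11 TPM, a log2 fold change of -2.03 ± 0.13 (SE, adjusted p = 4.02e-13). Neither overlapped, and under the other scalings and models the log2 fold change stayed between -3.26 and -1.51 for IRS1 and between -3.11 and -1.95 for IRS2, called each time.

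In all, 5 of the 8 tested genes passed with TMM scaling, 3 higher and 2 lower, where 52.9% of all 13500 genes tested did. The median log2 fold change was 0.00 over the 8 genes and -0.04 over all genes tested. This treatment moves the scaling itself: the median log2 fold change of all genes was -0.50 with library-size scaling, -0.60 on log2(TPM + 1) and -1.12 when libraries were scaled to mitochondrially encoded genes. Of all called genes, 2857 were higher and 4279 lower with TMM, against 381 and 6076 with library-size scaling and 79 and 9524 with mitochondrial scaling.

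The binding proteins changed direction with the scaling. IGFBP2 was 692 and 651 TPM with DMSO and 730 and 742 TPM with ARV-771, with a log2 fold change of 0.86 with TMM (± 0.05 SE, adjusted p = 1.96e-14) and -0.22 with mitochondrial scaling. IGFBP7 was 79.9 and 72.4 TPM against 87.4 and 89.4 TPM, with 0.94 and -0.14 on the log2 scale under the same scalings. IGFBP6 was 14.8 and 6.95 TPM against 10.04 and 11.1 TPM, overlapping, with 0.69 and -0.40, and was not called without DMSO replicate B (0.38) or ARV-771 replicate B (0.54). IGFBP5 was 13.7 and 15.9 TPM against 9.13 and 11.3 TPM, with 0.20 on the log2 scale with TMM, -0.26 with library-size and -0.88 with mitochondrial scaling.

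Neither receptor passed with TMM. IGF1R was 19.0 and 17.7 TPM with DMSO and 13.5 and 10.3 TPM with ARV-771. Its log2 fold change was -0.20 with TMM, not called, and -0.15 with RLE factors. It was -0.66 with library-size scaling, -0.59 on log2(TPM + 1) and -1.28 with mitochondrial scaling. INSR was 4.37 and 5.0 TPM against 1.73 and 2.02 TPM, with -0.39 on the log2 scale with TMM, not called, -0.98 on log2(TPM + 1) and -1.47 with mitochondrial scaling. TPM also use a transcript length estimated in each library, so counts and TPM can differ in size for this gene. Under mitochondrial scaling 5 genes again passed, all lower: IGFBP5, IGF1R, INSR, IRS1 and IRS2.

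**Figure D4:**
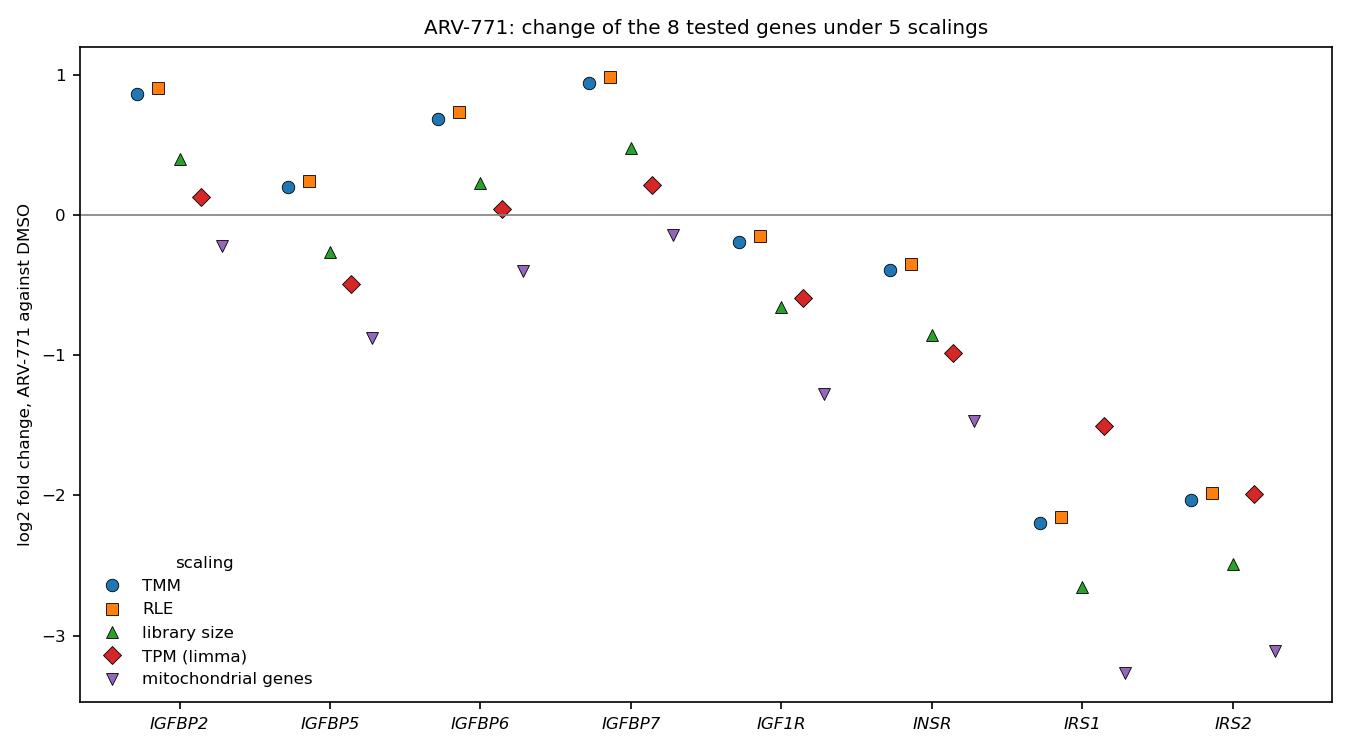
log2 fold change of ARV-771 against DMSO for the 8 tested genes under 5 scalings (TMM, RLE, library size, TPM with limma and mitochondrially encoded genes), with 1 point each. The points of the 4 binding proteins lie on both sides of 0, whereas IRS1 and IRS2 stay at -1.51 or lower.

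The SKMES1 control against the KYSE140 CRISPRi control gives the levels of the 10 genes in the 2 lines, where line and CRISPR construct cannot be told apart. Its libraries also serve as the controls of e1 repression and of e1 activation. Of the 10 genes, 8 passed, where 55.6% of all 15100 genes tested did. IGFBP3 and IGFBP4 met the filter on low counts through SKMES1 alone, so they had to differ. Of the other 8 genes, which met it in each line, 6 passed, 2 higher and 4 lower in SKMES1, where 49.0% of the 12177 genes that met it in each line did. IGFBP5 is among the 4 lower. Its SKMES1 control values were used to choose the set, so its part in these counts is no test. IGFBP4 was 99.3 and 143 TPM in SKMES1 and at 0 in both KYSE140 controls, at least 496-fold higher in CPM against a floor of 3 counts per library. IGFBP3 was 51.1 and 45.3 TPM in SKMES1 and had 0 and 2 counts in KYSE140, a 708-fold ratio of CPM (95% exact interval 196 to 5852, counting error only). IGFBP7 was higher by 2.10 ± 0.27 on the log2 scale (SE, adjusted p = 0.00110), at 383 and 224 TPM in SKMES1.

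IGFBP6 was 341 and 1266 TPM in the SKMES1 controls, the higher value in the replicate that stands apart. The log2 difference of IGFBP6 from KYSE140 was 6.56 ± 0.77 (SE, adjusted p = 0.000824), and 5.30 without that replicate. IGFBP2 was 61.5 and 60.9 TPM in SKMES1 and lower by a log2 difference of -2.86 ± 0.13 (SE, adjusted p = 3.92e-05). IGFBP5 was 0.35 and 0.48 TPM in SKMES1, with a fitted log2 difference of -4.00 ± 0.29 (SE). The set was chosen with these SKMES1 values of IGFBP5, so its difference is given as a description. IGF1R was 9.56 and 8.97 TPM with a log2 difference of -1.80 ± 0.14 (SE, adjusted p = 0.000211). INSR was 3.87 and 4.21 TPM with a log2 difference of -0.72 ± 0.13 (SE, adjusted p = 0.00418), and it lost the call without KYSE140 control replicate 2 (-0.64, adjusted p = 0.0523). IRS1 (0.60 ± 0.21 SE, adjusted p = 0.0504) and IRS2 (-0.36 ± 0.13 SE, adjusted p = 0.0537) did not pass on the log2 scale, although IRS1 passed without SKMES1 replicate 1 (0.87). Without SKMES1 control replicate 2 the count was 8.

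e1 activation in SKMES1 is the contrast that chose the set. IGFBP5 was 0.35 and 0.48 TPM, from 15 and 24 counts, in the controls and 15.4 and 9.0 TPM, from 553 and 542 counts, with e1 guides #1 and #3. The fitted log2 fold change was 4.77, and 4.32 to 5.13 with any 1 library left out. IGFBP3 was 51.1 and 45.3 TPM in the controls and 16.99 and 24.0 TPM with e1 guides, a fitted log2 fold change of -1.25.

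The IGFBP6 value with e1 activation depended on the control replicate. IGFBP6 was 341 and 1266 TPM in the controls against 302 and 219 TPM, and the fitted log2 fold change was -1.76 with all libraries and -0.49 without control replicate 2. IGF1R was 9.56 and 8.97 TPM against 20.8 and 15.4 TPM, without overlap. Its fitted log2 fold change was 0.57 from counts, 0.40 to 0.77 with any 1 library left out, and 0.88 on log2(TPM + 1) or 0.94 on log2(TPM + 0.1). IGFBP2 was 61.5 and 60.9 TPM against 74.3 and 81.2 TPM, with 0.30 on the log2 scale. IGFBP7 (0.23), IRS1 (0.38), IRS2 (0.24), INSR (0.10) and IGFBP4 (-0.00) completed the set on the log2 scale.

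The other genes of the pathway form a list of 58, from ligands to mTOR. With e1 repression 10 of its 48 tested genes passed, 7 higher and 3 lower, where 20.0% of all genes tested did. With SOX2 knockout 11 of 49 passed, 9 higher and 2 lower, where 29.7% did. Of the 47 that met the filter on low counts in both groups, 10 passed with e1 repression, 7 higher and 3 lower, against 18.1% of all such genes. With SOX2 knockout 10 of 47 such genes passed, 9 higher and 1 lower, against 27.0%. The list's median log2 fold change was 0.08 in both comparisons, against -0.00 and -0.01 over all genes. With e1 repression the 3 genes with the smallest p among the higher were ADAMTS1, a secreted metalloprotease (log2 fold change 2.201 ± 0.15 SE), the adaptor SHC1 (0.79 ± 0.07 SE) and PAPPA, which cuts binding proteins (1.41 ± 0.12 SE). Among the lower were PIK3R2, a regulatory PI3K subunit (-0.75 ± 0.08 SE), HTRA1, a secreted protease (-2.20 ± 0.26 SE), and the docking protein GAB1 (-1.16 ± 0.18 SE).

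With SOX2 knockout ADAMTS1 (2.57 ± 0.14 SE) and SHC1 (0.99 ± 0.08 SE) were again among the higher, with the kinase GSK3B (0.99 ± 0.07 SE), on the log2 scale. IGF2 (-0.66 ± 0.14 SE) and IGF1 (-2.01 ± 0.62 SE) were lower with SOX2 knockout, IGF1 at 0.28 to 0.56 TPM against 0.64 and 1.85 TPM, below the filter's level with SOX2 guides and not called without knockout control replicate 2. IGF2 was 8.10 and 8.04 TPM in CRISPRi controls and 14.2 and 13.04 TPM with e1 guides, but 6.51 and 7.34 TPM in knockout controls and 3.79, 3.12 and 4.31 TPM with SOX2 guides. For IGF2 the 2 responses differed by 1.45 ± 0.16 on the log2 scale (SE, adjusted p = 2.19e-05). GAB1 differed the other way, by -2.13 ± 0.22 (SE, adjusted p = 1.49e-05), being lower with e1 repression and higher with SOX2 knockout, and PAPPA by 1.39 ± 0.17 (SE, adjusted p = 6.45e-05).

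With ARV-771, 24 of the 49 tested genes of the list passed, 6 higher and 18 lower, where 52.9% of all genes did. ADAMTS1, among the lower, met the filter on low counts through DMSO alone, so it had to be lower. Of the 46 genes that met it in both groups 23 passed, 6 higher and 17 lower, against 51.6% of all such genes. The list's median log2 fold change was -0.28 against -0.04 over all genes. FOXO1, a transcription factor that AKT keeps out of the nucleus, fell from 9.16 and 9.70 TPM to 0.58 and 0.59 TPM, and the PI3K subunit PIK3R1 from 7.73 and 8.55 TPM to 0.60 and 1.87 TPM. Their log2 fold changes were -3.29 ± 0.15 and -3.47 ± 0.17 (SE), and that of FOXO3 was -1.90 ± 0.12 (SE). All 18 lower genes were below 0 under each scaling that tested them. AKT1 (0.66), EIF4EBP1 (0.69) and MTOR (0.68) were higher on the log2 scale with TMM, but these and the other 3 higher genes were below 0 under at least 1 other scaling.

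**Figure D5:**
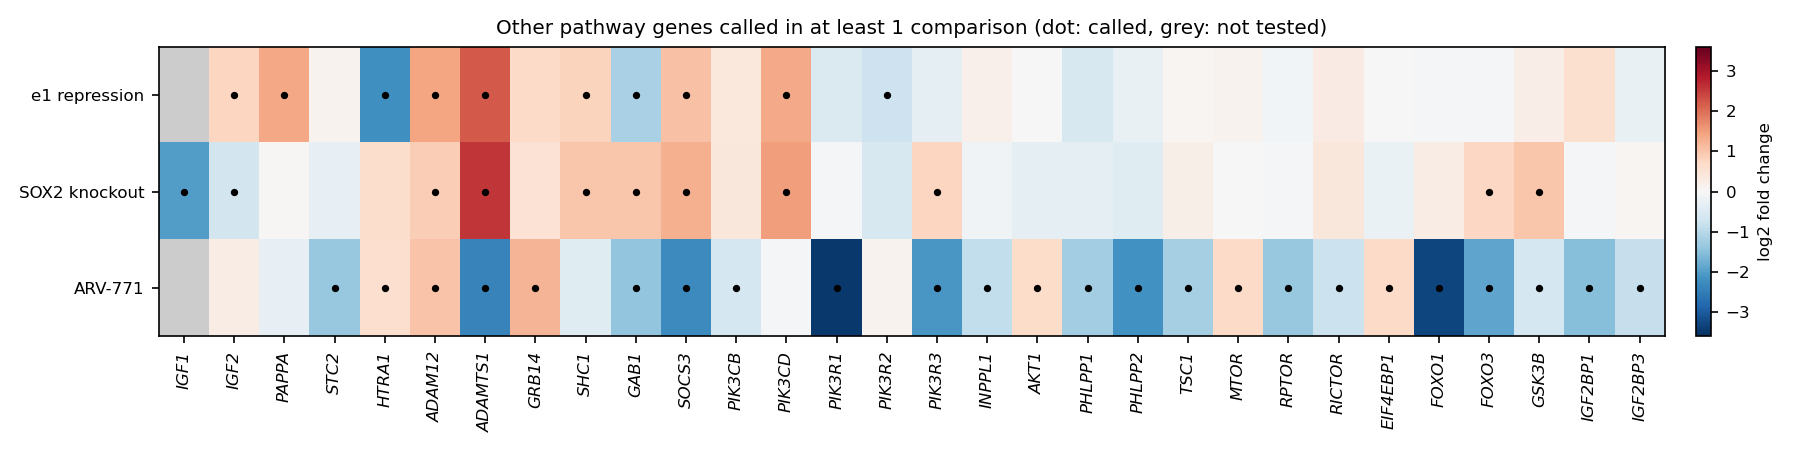
log2 fold change of the 30 other pathway genes that passed in at least 1 of the 3 KYSE140 comparisons, as a colour from -3.6 (blue) to 3.6 (red), with a dot where called and grey where not tested. The ARV-771 row is mostly blue, with FOXO1 and PIK3R1 darkest, and GAB1 is blue with e1 repression and red with SOX2 knockout.

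Between the effects of e1 repression and knockout, 10 of 50 pathway genes tested differed, 5 in each direction, where 16.6% of all genes did. IGF1, with a positive difference, did not meet the filter in every group and was not called in 8 of 13 alternatives. Of the 47 genes that met it in every group 9 differed, 4 positive and 5 negative, against 17.8% of all such genes. In SKMES1 controls against KYSE140 controls 30 of 53 passed, where 55.6% of all genes did. Of these 30, 6 (GRB10, ADAM28, IGFBP1, IGFBPL1, STC1 and GRB14) met the filter through 1 line alone and had to differ, and of the 46 that met it in each line 24 passed, 15 higher and 9 lower, against 49.0% of all such genes. SHC1 (2.63 ± 0.11 SE) and the metalloprotease ADAM12 (4.61 ± 0.23 SE) were higher and the PI3K catalytic subunit PIK3CA (-1.43 ± 0.09 SE), the translation repressor EIF4EBP1 (-1.89 ± 0.12 SE) and the kinase AKT2 (-1.11 ± 0.08 SE) lower in SKMES1, on the log2 scale. The adaptor GRB10 stood at 39.6 and 55.6 TPM against 0 and 0.07 TPM. The insulin gene INS was listed at 0 in both. With e1 activation STC1, an inhibitor of PAPPA, was 1.12 and 1.38 TPM in controls and 7.96 and 8.11 TPM with e1 guides. It was picked from the list for its change in that same contrast, so these values are a description.

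Genes with the most similar pattern over the 17 libraries were found by the root mean square difference of log2(TPM + 1), each gene centred on its own mean, among 14921 genes of mean TPM at or above 1. For IGFBP2 they were REEP2 (0.40), the gap junction gene GJA1 (0.41) and OCA2 (0.47), and for IGFBP5 they were the kinase MAP2K6 (0.71), PCTP (0.90) and KIT (0.91). IGFBP6 was most like GBP3 (0.58), ISG15 (0.58) and SP110 (0.60). IRS2 was most like ZNF622 (0.23), FRMD6 (0.24) and GCC1 (0.28). IGFBP3 was nearest to SERPINB1 (0.24), TGM2 (0.28) and TSPAN7 (0.29), IGFBP4 to XAGE1E, XAGE1A and XAGE1C (0.16 each), near-identical copies that share reads, and IGFBP7 to RP11-218M22.1 (0.21), FAM50A (0.22) and ZFP28 (0.24). The libraries share a line, a treatment or a depth, so these values are a description over these samples.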

How the data were processed

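RNA-seq of poly-A selected RNA was deposited as 1 gene table per library. Per the study's methods and the labels, the authors used Bowtie2 against hg19 (GRCh37) and RSEM on GENCODE genes (versions not given in the sources used here). The deposited expected counts are estimates that need not be whole, the deposited TPM are scaled by length and depth, and the deposited FPKM were not used. The kit was directional, but whether counting used strand is not stated, so reads of IGFBP5, IGFBP7, IGF1R and IRS2 cannot be told from those of genes annotated on the opposite strand. IGFBP7, IGF1R and INSR also overlap genes on their own strand.

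Expected counts were rounded and tested with edgeR 4.0.16 in R 4.3.3 (quasi-likelihood F test, TMM, filterByExpr with a minimum count of 10, Benjamini-Hochberg over all genes tested), each comparison on its own libraries. A gene was called at adjusted p under 0.05 and fold change over 1.5. SE is the log2 fold change over the square root of F. Alternatives were DESeq2 1.42.0, RLE factors, library size only, no filter, limma 3.58.1 on log2(TPM + 1) and log2(TPM + 0.1) for genes of mean TPM 1 or more, all 17 libraries in one fit, a replicate block, scaling to mitochondrially encoded genes for ARV-771, and leaving out each library. The fits were tested on simulated counts. The 10 genes, the 58 other pathway genes and 22 markers were chosen with earlier results of these data known. Every tested gene of the 10 is named in each comparison (IGFBP3 and IGFBP4 could not be tested within KYSE140), and of the pathway at most the 3 higher and 3 lower called genes of smallest p. INS, ADAM28, IGFBP1, IGFBPL1 and GRB14 were named after the values were seen. Counts over genes that met the filter in each line or each group were also added then. PIK3R2 has 2 entries, of which the protein-coding one was used, and PECAM1 was not analysed here.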

Additional observations from a re-analysis of the deposited data

Results flagged for a closer look

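3 genes had effects of e1 repression and SOX2 knockout that differed by the interaction test (edgeR, adjusted over all 14455 genes tested). The difference in log2 fold change was 1.32 for IRS1 and 1.19 for IGF1R, each called with any 1 of the 9 libraries left out, with ranges of 1.13 to 1.49 and 1.10 to 1.34. For IGFBP5 it was -1.52, with a range of -2.42 to -0.88 and a call lost in 4 of those 9 fits and with limma on log2(TPM + 1) (-1.29, adjusted p = 0.0678). With at most 3 libraries per group, no group was tested for a sample far from the others.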

How the results depend on the processing

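None of the 8 tested genes changed direction in e1 repression under the alternatives, and 5 to 6 passed. In SOX2 knockout 3 passed with limma on log2(TPM + 1) and on log2(TPM + 0.1), and 4 to 5 with 1 library left out. There IGFBP5 reversed to 0.61 without knockout control replicate 2 (range -0.94 to 0.61), and IGFBP7, near 0, without SOX2 replicate 4 or control replicate 2 (-0.063 to 0.041). The interaction passed for 2 to 4 of the genes with 1 library left out, and IRS2, near 0, reversed in 5 of the 9 fits (-0.16 to 0.23). With ARV-771 mitochondrial scaling reversed IGFBP2 (-0.22), IGFBP5 (-0.88), IGFBP6 (-0.40) and IGFBP7 (-0.14) and gave 37 called pathway genes. IGFBP5 also reversed with library size (-0.26), log2(TPM + 1) (-0.49) and log2(TPM + 0.1) (-0.53). Leaving out 1 library gave 4 to 5 called genes of the set there, 7 to 9 between the lines, and 22 to 24, 10 to 12 and 10 to 12 pathway genes for ARV-771, SOX2 knockout and e1 repression. The e1 activation value of IGFBP5 was 3.18 on log2(TPM + 1) and 4.32 to 5.13 with 1 library left out. The cause was not tested. IGFBP5 rests on 11 to 30 counts per library in the knockout arm.

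Replicate numbers are guide numbers or, for ARV-771 and DMSO, letters of the labels, and the knockout controls, labelled by target site, were numbered in accession order. Deviations of same-numbered libraries correlated at 0.02 (e1 repression), -0.04 (ARV-771) and 0.02 (line comparison), with 2 pairs each, so the numbers were not taken to pair the libraries. In the line comparison a shared number is also a shared control guide label. The replicate block gave 5, 5 and 8 called genes of the set and 10 and 24 pathway genes, the same counts as without it. No paired analysis was possible because the groups of SOX2 knockout, e1 activation and the interaction share fewer than 2 numbers.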
